A study of Mus musculus with 6 samples.

Results

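The genes examined are those of the endoplasmic reticulum (ER) that carry a secreted protein from its entry into the ER to its folding or its destruction, with the sensors that adjust their supply. The list holds 51 genes, taken by name: 13 of translocation and signal peptide cleavage, 5 of N-glycosylation, 18 of folding, 9 of ER-associated degradation and 6 of stress sensing. Of the 51, 50 were measured through a probe set with only that gene's symbol, out of 19938 genes on the array that could be followed this way. Sec61g, a small subunit of the translocation channel, was listed only on probe sets shared with predicted genes and has no value here. A gene with several probe sets was followed through the brightest of them.

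Whole prostates of 3 mice with an AR3 transgene and of 3 wild-type littermates were profiled at 4 weeks of age, 1 Affymetrix array per mouse. AR3 is a splice variant of the androgen receptor that lacks the hormone-binding domain and acts without androgen. The sources used here give neither the promoter that drives the transgene nor the mouse strain. The dissected organ holds epithelium, stroma and vessels, so fewer cells of a type and less RNA per cell cannot be told apart. All 50 genes lay above background on every array: their intensities ran from 97.9 to 8515. The background scale, the 95th percentile of 1023 olfactory receptor probe sets, lay between 66.6 and 91.8 on the 6 arrays.

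A secretory protein enters the ER through the Sec61 channel, loses its signal peptide, receives a sugar chain from the oligosaccharyltransferase, and folds with the help of BiP (Hspa5), lectin chaperones and disulfide isomerases. Proteins that fail to fold are returned to the cytosol and degraded through the Sel1l and Syvn1 complex. When unfolded protein builds up, the membrane sensors IRE1 (Ern1), PERK (Eif2ak3) and ATF6 raise the transcription of chaperone and degradation genes, in part through XBP1 and through ER stress response elements (ERSE) in their promoters. Prostate luminal cells export large amounts of protein and use this machinery heavily.

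RefSeq promoter windows (GRCm38.p6, 250 bases before to 50 after a transcription start) were found for 43 of the 51 genes and read for response element letters on both strands. ERSE, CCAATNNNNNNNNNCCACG, to which ATF6 binds together with NF-Y, occurred in 9 of the 43 genes (20.9%) and in 37 of all 27025 genes with a window (0.137%). The 9 are Hspa5, Hsp90b1, Calr, Canx, Pdia6, Dnajc3, Creld2, Syvn1 and Derl3. The related ERSE-II, ATTGGNCCACG, occurred in Herpud1 and Dnajb11, 2 of 43 genes (4.65%), against 12 of 27025 (0.0444%). Both motifs hold a CCAAT box and a CCACG box, in different spacing, and no listed gene held both motifs. The complement of the XBP1-type letters below begins with the same CCACG box, but no listed gene held them together with either element. The XBP1-type letters TGACGTGG were in Txndc5 and Txndc11 (4.65% of 43 genes, 0.714% of all), and the ATF4-type letters TGATGNAA in Txndc5 and Herpud1 (4.65% of 43 genes, 4.51% of all). A match describes the letters of these windows and does not show that a factor binds there.

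Windows are shown for the 5 genes with a match and the smallest p in the comparison below, and for Hspa5, the classical target. They lie on the plus strand at chr19:6046326-6046625 (Syvn1), chr10:75893148-75893447 (Derl3), chr8:94386179-94386478 (Herpud1), chr16:22857595-22857894 (Dnajb11), chr15:88819396-88819695 (Creld2) and chr2:34771840-34772139 (Hspa5). Capitals mark the ERSE or, in Herpud1 and Dnajb11, the ERSE-II. In Derl3 and Creld2 the element reads on the opposite strand.
Syvn1: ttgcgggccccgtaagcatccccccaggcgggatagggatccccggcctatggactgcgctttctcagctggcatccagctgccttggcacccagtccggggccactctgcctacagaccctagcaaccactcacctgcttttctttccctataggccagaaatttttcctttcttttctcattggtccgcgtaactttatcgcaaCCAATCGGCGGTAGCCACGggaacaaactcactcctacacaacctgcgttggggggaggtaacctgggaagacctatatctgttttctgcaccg
Derl3: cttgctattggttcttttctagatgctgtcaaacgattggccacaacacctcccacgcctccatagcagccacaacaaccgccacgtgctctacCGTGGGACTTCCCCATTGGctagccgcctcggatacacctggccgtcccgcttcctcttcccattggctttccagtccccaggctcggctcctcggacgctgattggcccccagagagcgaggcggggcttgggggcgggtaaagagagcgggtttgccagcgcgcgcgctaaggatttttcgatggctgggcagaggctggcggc
Herpud1: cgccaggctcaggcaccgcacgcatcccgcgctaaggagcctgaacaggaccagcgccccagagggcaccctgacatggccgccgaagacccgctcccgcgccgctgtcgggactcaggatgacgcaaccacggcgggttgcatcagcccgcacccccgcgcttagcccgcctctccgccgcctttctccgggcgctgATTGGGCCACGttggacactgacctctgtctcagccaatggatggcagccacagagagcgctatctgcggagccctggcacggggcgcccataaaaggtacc
Dnajb11: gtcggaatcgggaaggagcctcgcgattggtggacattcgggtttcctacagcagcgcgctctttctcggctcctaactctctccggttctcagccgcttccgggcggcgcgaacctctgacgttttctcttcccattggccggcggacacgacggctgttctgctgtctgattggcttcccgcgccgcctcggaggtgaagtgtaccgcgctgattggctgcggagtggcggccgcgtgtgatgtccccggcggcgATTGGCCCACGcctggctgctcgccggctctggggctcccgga
Creld2: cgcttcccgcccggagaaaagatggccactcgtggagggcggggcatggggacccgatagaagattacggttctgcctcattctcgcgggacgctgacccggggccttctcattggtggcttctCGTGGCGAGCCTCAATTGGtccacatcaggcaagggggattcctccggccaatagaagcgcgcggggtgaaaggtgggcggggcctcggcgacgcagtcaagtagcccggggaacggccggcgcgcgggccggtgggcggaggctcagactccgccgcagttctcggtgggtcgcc
Hspa5: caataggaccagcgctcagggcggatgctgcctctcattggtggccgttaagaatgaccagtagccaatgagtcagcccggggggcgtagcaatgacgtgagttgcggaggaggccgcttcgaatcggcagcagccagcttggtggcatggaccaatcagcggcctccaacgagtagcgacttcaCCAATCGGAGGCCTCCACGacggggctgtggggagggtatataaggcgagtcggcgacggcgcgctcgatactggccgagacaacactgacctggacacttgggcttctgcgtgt

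Counting the first transcribed base as 0, the element began at -44 in Syvn1, -52 in Herpud1, -65 in Hspa5, -126 in Creld2 and -156 in Derl3. In Dnajb11 it lay within the transcribed part, from base 7 to 17. Hsp90b1 was the only gene of the 11 with more than 1 exact match in its window, with starts at -212 and -107. Elements with a changed base were not searched for, so further elements of that kind are not counted. These 11 genes are folding or degradation genes. None of the matched translocation, glycosylation or sensor genes held either element. Sec11c, Spcs3, Sec61a1, Ssr2, Hyou1, Manf, Derl1 and Atf6 had no window here, so whether they hold an element was not read.

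In the comparison of AR3 transgenic with wild-type prostates, no single gene of the 50 passed the threshold. The mean level still lay lower in transgenic prostates for 41 of them (82%) on the log2 scale, against 46.1% of all genes. The genes with the lowest transgenic levels relative to wild-type were the stress factor Ddit3 (50.1% of the wild-type mean), the ubiquitin ligase Syvn1 (52.0%), Herpud1 (66.0%) and Derl3 (66.4%), all in degradation or stress signalling. The channel core Sec61a1, the lectin chaperones Canx and Calr and the isomerases Pdia3 and Pdia6 had transgenic means between 95.8% and 103.3% of wild-type. By limma on log2(intensity + 16), p-values adjusted after Benjamini-Hochberg for 28944 probe sets, 0 of 50 genes were called lower and 0 higher at an adjusted p of 0.05. Over all probe sets 0.415% were called lower (120) and 1.05% higher (305). With median centring of the arrays, which moved that split to 264 lower and 314 higher, Herpud1, Syvn1 and Derl3 were called lower, with adjusted p of 0.0405, 0.0275 and 0.0308.

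At an unadjusted limma p of 0.05, 16 of the 50 genes (32%) were lower, against 5.87% of all probe sets and 5.36% of those with a mean above the background scale. The count depended on single mice: it was 6 without transgenic replicate 2 (3.98% of all probe sets), 7 without transgenic replicate 3 (3.53%), 9 without wild-type replicate 1 (9.5%) and 6 without wild-type replicate 3 (4.63%). With array weights it was 7, where 11.2% of all probe sets were lower. Ddost alone was higher at that level, where 6.38% of all probe sets were. In 18 of 50 genes (36%) every transgenic mouse lay below every wild-type mouse, against 8.78% of all probe sets and 9.61% of those above the background scale. In 1 gene, Ddost, every transgenic mouse lay above, against 10% of all probe sets. The log2 change was negative for 41 of 50 genes, with a median of -0.11, while the median over all genes was 0.013. The list was chosen with earlier results of these data known, and its genes are not independent of each other, so these counts are a description.

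**Figure D1:**
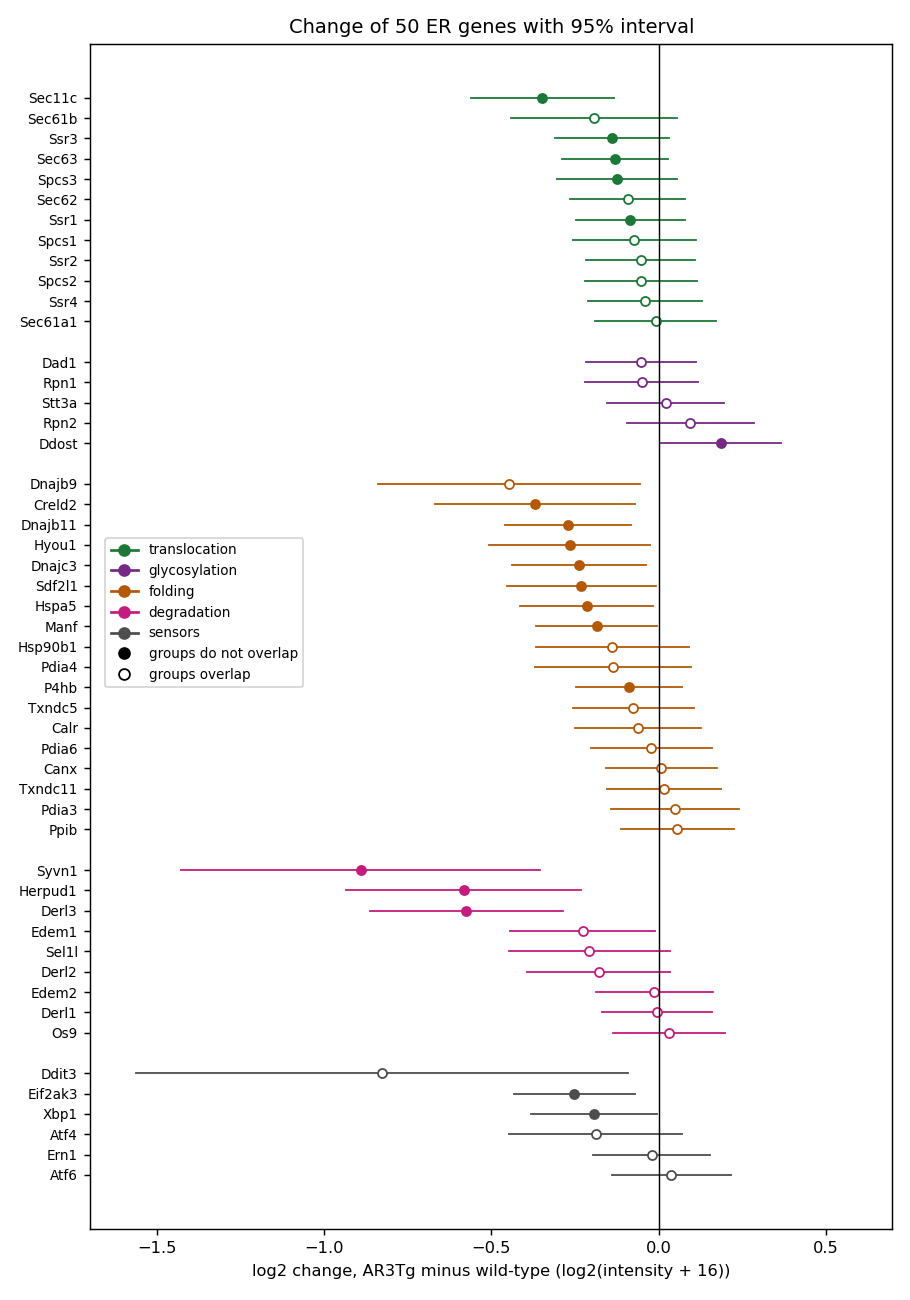
Log2 change of the 50 measured ER genes, AR3 transgenic minus wild-type on log2(intensity + 16), with its 95% interval from limma (3 mice per genotype), grouped by step. Filled points mark genes whose genotypes do not overlap, 18 lower and 1 higher. The degradation genes Syvn1, Herpud1 and Derl3 lie furthest below 0 among them, and glycosylation genes lie around 0.

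The first step is entry into the ER, and its 12 measured genes all had negative log2 changes, against 46.1% of all genes. The 12 changes lay between -0.35 and -0.0088 with a median of -0.088. Sec61a1, which forms the channel, had intensities of 4106, 3879 and 4136 in transgenic mice, against 4331, 3918 and 3954 in wild-type mice. The genotypes overlapped, and the log2 change of -0.0088 had a 95% interval from -0.19 to 0.17. Sec11c, a catalytic subunit of the signal peptidase, had 1247, 1035 and 1137 in transgenic mice, against 1376, 1469 and 1513 in wild-type mice. All transgenic values lay below all wild-type values. Its log2 change was -0.35 ± 0.09 (SE, adjusted p 0.17), and it was called when limma modelled an intensity trend with robust variances (0.0265) or weighted the arrays (0.0457).

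Sec63, which couples the channel to BiP, had 1418, 1429 and 1402 in transgenic mice, against 1534, 1539 and 1583 in wild-type mice. The genotypes did not overlap, at -0.13 ± 0.07 on the log2 scale (adjusted p 0.50). Ssr3, a subunit of the translocon-associated complex, had 3181, 3025 and 3070.4 in transgenic mice, against 3399, 3275 and 3551 in wild-type mice, again without overlap (-0.14 ± 0.07, adjusted p 0.50). The signal peptidase subunit Spcs3 had 2139, 1993 and 2112 in transgenic mice, against 2396, 2175 and 2242 in wild-type mice. It did not overlap either (-0.12, adjusted p 0.57), nor did Ssr1 (-0.08, adjusted p 0.69). Sec61b, the beta subunit of the channel, had 567, 502 and 507.5 in transgenic mice, against 541, 584 and 690 in wild-type mice, and overlapped (-0.19, adjusted p 0.53). The other 5 genes, Sec62, Spcs1, Ssr2, Spcs2 and Ssr4, overlapped, with log2 changes between -0.09 and -0.04.

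The 5 glycosylation genes encode subunits of the oligosaccharyltransferase, and their median log2 change was 0.022. That median was -0.018 with quantile normalization and -0.016 with median centring. Ddost had 2943, 2898 and 3051 in transgenic mice, against 2775, 2533 and 2503 in wild-type mice. All transgenic values lay above all wild-type values, 0.19 ± 0.08 on the log2 scale (adjusted p 0.38). Rpn2 had 3439, 3410 and 3662 in transgenic mice, against 3540, 3173 and 3131 in wild-type mice, and overlapped (0.10 ± 0.08, adjusted p 0.70). Stt3a, a catalytic subunit, had 3997, 3698 and 3986 in transgenic mice, against 3952, 3868 and 3684 in wild-type mice. Its log2 change was 0.022, with a 95% interval from -0.15 to 0.20. Rpn1 had 2431, 2397 and 2513 in transgenic mice, against 2619.9, 2428 and 2555 in wild-type mice (-0.05, adjusted p 0.84). Dad1 had 1963, 1825 and 1911 in transgenic mice, against 1961, 1977 and 1973 in wild-type mice (-0.05, adjusted p 0.82). Neither of these subunits separated the genotypes.

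Among the 18 folding genes, 14 had negative log2 changes and the median was -0.14. Leaving out wild-type replicate 1 gave a median of -0.086. Weighting the arrays gave -0.079, and also smaller changes for Creld2 (-0.18), Hyou1 (-0.13) and Hspa5 (-0.12). Of the 18, 8 (44.4%) did not overlap between genotypes, all lower in transgenic mice, against 8.78% of all probe sets. They are the BiP cochaperones Dnajb11 and Dnajc3, BiP itself, its nucleotide exchange factor Hyou1, the small ER proteins Sdf2l1, Manf and Creld2, and the isomerase P4hb. Hspa5 had intensities of 7010.1, 6965 and 6937 in transgenic mice, against 8515, 7323 and 8505 in wild-type mice. The transgenic mice were nearly equal, and wild-type replicate 2 lay between them and the other wild-type mice. The mean was 6971 ± 36.8 in transgenic and 8114 ± 685 in wild-type mice (SD, n = 3), with a log2 change of -0.22 ± 0.09 (adjusted limma p 0.37).

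Dnajb11 had 1063, 1083 and 1081 in transgenic mice, against 1267, 1226 and 1419 in wild-type mice. Its log2 change was -0.27 ± 0.08 (adjusted p 0.23), and its p was the smallest among the folding genes. Creld2 had 2810.3, 2707 and 2694 in transgenic mice, against 3859, 2877 and 4005 in wild-type mice. Wild-type replicate 2 again stood close to the transgenic mice (-0.37 ± 0.13, adjusted p 0.31). Dnajc3, which also inhibits PERK, had 4668, 4385 and 4472 in transgenic mice, against 5568, 4829 and 5595 in wild-type mice (-0.24 ± 0.09, adjusted p 0.33). Hyou1 had 2689.6, 2748 and 2586 in transgenic mice, against 3448, 2780.1 and 3479 in wild-type mice (-0.27 ± 0.10, adjusted p 0.36). For both genes the lowest wild-type value belonged to replicate 2.

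Dnajb9, a cochaperone that hands misfolded proteins to degradation, had 1714, 1295 and 1272 in transgenic mice, against 2013, 1559.8 and 2298 in wild-type mice. Transgenic replicate 1 lay above wild-type replicate 2, so the genotypes overlapped (-0.45 ± 0.17, adjusted p 0.35). Sdf2l1 and Manf had log2 changes of -0.23 and -0.19, each with an adjusted p of 0.39, and P4hb of -0.09 (0.66). The abundant chaperone Hsp90b1 and the isomerase Pdia4 overlapped, each at -0.14. The remaining 7, Txndc5, Calr, Pdia6, Canx, Txndc11, Pdia3 and the prolyl isomerase Ppib, lay between -0.08 and 0.06. For Canx, the membrane lectin chaperone, the log2 change of 0.0086 had a 95% interval from -0.16 to 0.17.

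The 9 degradation genes had a median log2 change of -0.21 and held the 3 largest negative changes outside Ddit3. Array weights gave a median of -0.13, as did leaving out wild-type replicate 3. Syvn1, the ubiquitin ligase Hrd1, had 1149, 907 and 847 in transgenic mice, against 1718, 1316 and 2551 in wild-type mice. All transgenic values lay below all wild-type values, and the wild-type mice spread widely. The mean was 968 ± 160.0 in transgenic and 1861 ± 630.1 in wild-type mice (SD, n = 3), a log2 change of -0.89 ± 0.23 (adjusted p 0.16). Herpud1, a scaffold of the same ligase complex, had 3323, 3131 and 2745 in transgenic mice, against 4600.5, 3741 and 5607 in wild-type mice. The order of the mice was that of Syvn1, with a log2 change of -0.58 ± 0.15 (adjusted p 0.16).

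Derl3, a channel component typical of secretory cells, had 1026, 870.5 and 902 in transgenic mice, against 1487, 1169 and 1557 in wild-type mice. The genotypes did not overlap, and the log2 change was -0.57 ± 0.12 (adjusted p 0.091), with the smallest p of the 50 genes. Derl3 was called without wild-type replicate 2 (0.0437), with an added constant of 64 (0.0386) and under the intensity trend with robust variances (0.0199). Its relatives did not separate the genotypes. Derl2 had a log2 change of -0.18 (adjusted p 0.49). Derl1 had one of -0.0049, with a 95% interval from -0.17 to 0.16. Edem1, which selects misfolded glycoproteins, had 1848, 1688 and 1676 in transgenic mice, against 2061, 1842 and 2217 in wild-type mice. Its genotypes overlapped by a narrow margin (-0.23 ± 0.09, adjusted p 0.38). Sel1l, the partner of Syvn1, had 1584, 1579 and 1516 in transgenic mice, against 1862, 1564 and 2013 in wild-type mice, where replicate 2 lay within the transgenic range (-0.21 ± 0.10, adjusted p 0.48). Edem2 lay at -0.012 and the lectin Os9 at 0.031.

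**Figure D2:**
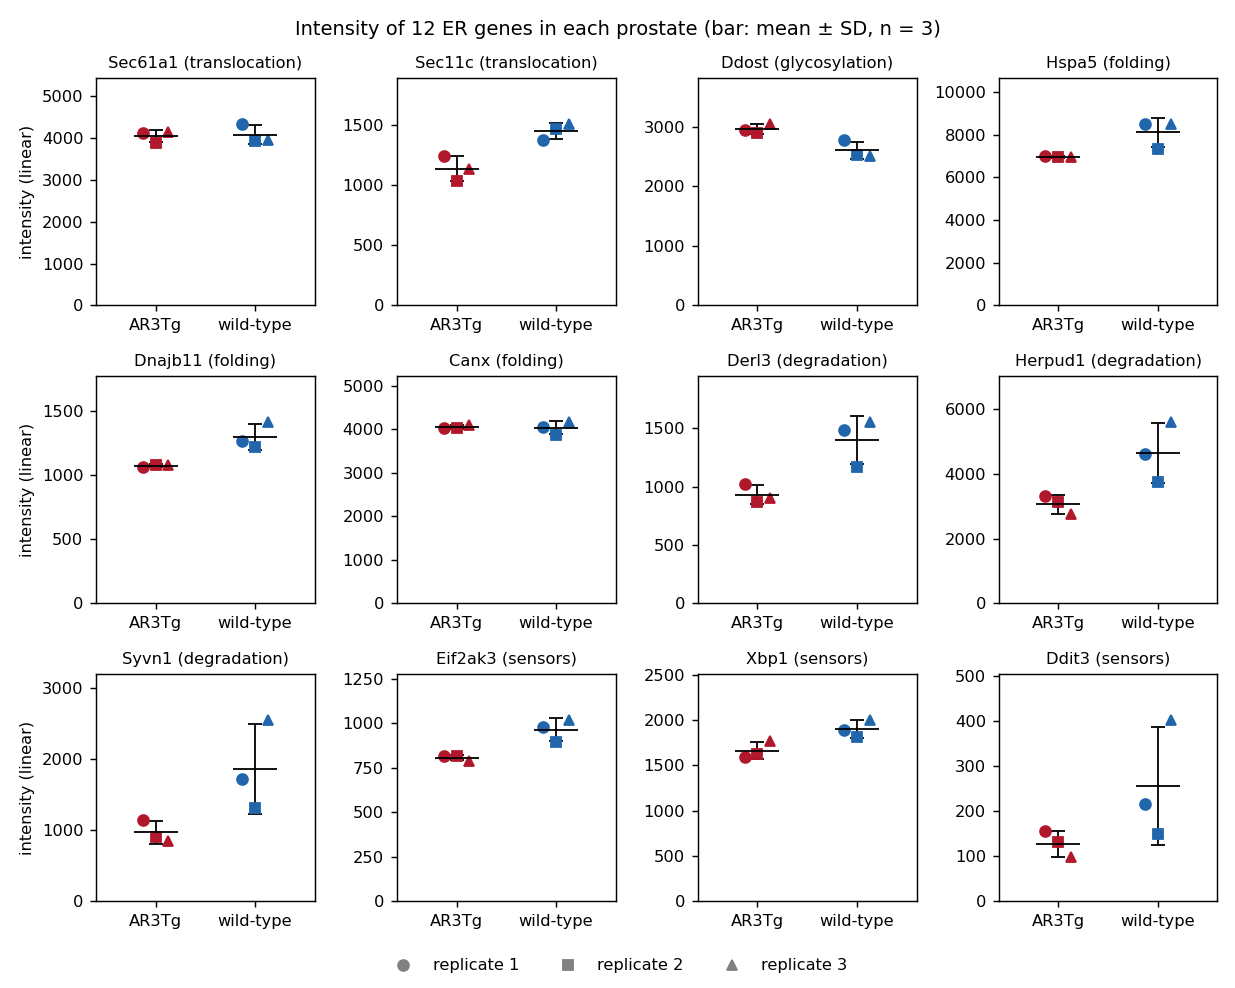
Intensity of 12 ER genes in each prostate on a linear scale starting at 0, AR3 transgenic left and wild-type right; symbols give the replicate and bars the mean ± SD (n = 3). Hspa5, Dnajb11 and Eif2ak3 are tight in transgenic mice, while for Syvn1, Herpud1 and Ddit3 wild-type replicate 3 stands highest and wild-type replicate 2 nearest to the transgenic mice.

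The sensors and their transcription factors differed among themselves. Eif2ak3, the kinase PERK, had 814, 814 and 789.8 in transgenic mice, against 976, 897 and 1019 in wild-type mice. The genotypes did not overlap (-0.25 ± 0.08, adjusted p 0.25). Ern1, the sensor IRE1, had 1057, 989.6 and 993 in transgenic mice, against 1042, 980.1 and 1062 in wild-type mice, with a difference of -0.021 on the log2 scale and a 95% interval from -0.19 to 0.15. Atf6 had 1495, 1529 and 1498 in transgenic mice, against 1549.7, 1482 and 1375 in wild-type mice (0.039, interval from -0.14 to 0.22).

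Xbp1, whose mRNA IRE1 splices, had 1592, 1624 and 1767 in transgenic mice, against 1888, 1808 and 2003 in wild-type mice. All transgenic values were lower (-0.19 ± 0.08, adjusted p 0.40), and the probe set gives 1 value for spliced and unspliced forms together. Atf4, the factor translated when PERK is active, had 1366, 1332 and 1120.4 in transgenic mice, against 1298, 1467 and 1590.1 in wild-type mice, with overlap (-0.19 ± 0.11, adjusted p 0.56). Ddit3, the stress factor CHOP, had 156, 132 and 97.9 in transgenic mice, against 216, 150.3 and 404 in wild-type mice. Transgenic replicate 1 lay above wild-type replicate 2, and transgenic replicate 3 lay just above the highest background value of 91.8. The log2 change was -0.83 ± 0.32 (adjusted p 0.35), and it was -0.46 without wild-type replicate 3.

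The wild-type mice kept a common order in many of these genes. Wild-type replicate 2 was the lowest of them in 9 of 9 degradation genes, 17 of 18 folding genes and 37 of 50 genes in all (74%), against 26.0% of all probe sets. The SD on the log2 scale was larger in wild-type mice for 36 of the 50 genes (72%), near the 67.4% of all probe sets. Set against each gene's mean over the 6 arrays, the degradation genes lay at -0.062, -0.18 and -0.20 on the log2 scale in transgenic mice, and at 0.17, -0.024 and 0.30 in wild-type mice. The folding genes lay at -0.042, -0.10 and -0.077 in transgenic mice, and at 0.12, -0.050 and 0.15 in wild-type mice, so here wild-type replicate 2 fell inside the transgenic range. Without that mouse the median change of the folding genes was -0.22 in place of -0.14. Translocation genes lay at -0.0088, -0.10 and -0.055 in transgenic mice, against 0.052, 0.034 and 0.081 in wild-type mice. Over all 19938 genes the same means lay between 0.0037 and 0.017 in transgenic mice, against -0.073 and 0.044 in wild-type mice.

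**Figure D3:**
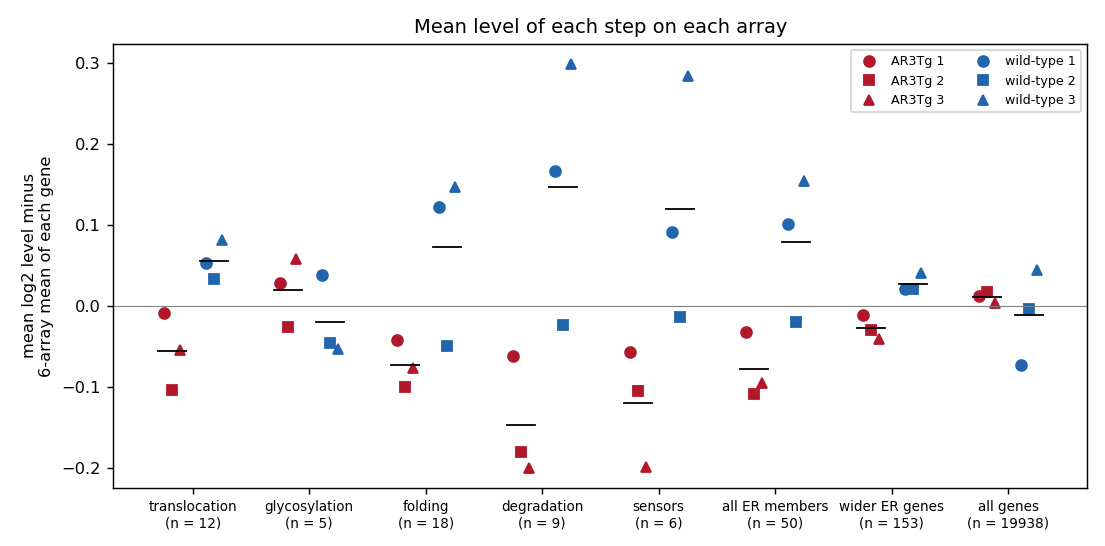
Mean log2 level of each step on each array, as the difference from each gene's mean over the 6 arrays; points are mice, lines the mean of 3, AR3 transgenic left of wild-type. Degradation and sensor genes show the widest distance between genotypes and among wild-type mice, wild-type replicate 2 lies lowest of its group in both, and in glycosylation genes, folding genes and all genes the genotypes overlap.

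Set beside the promoter letters, the genes with an ERSE or ERSE-II did not behave alike. Of the 11, 7 had all transgenic mice below all wild-type mice, namely Syvn1, Herpud1, Derl3, Creld2, Dnajb11, Dnajc3 and Hspa5. The other 4, Hsp90b1, Calr, Pdia6 and Canx, overlapped, with log2 changes between -0.14 and 0.0086. The median change was -0.24 for the 11 genes and -0.085 for the 31 measured genes with a window but neither element, of which 7 did not overlap and were lower. Of all probe sets 8.78% did not overlap and were lower, and 9.61% of those above the background scale. The difference between these sets was not tested.

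**Figure D4:**
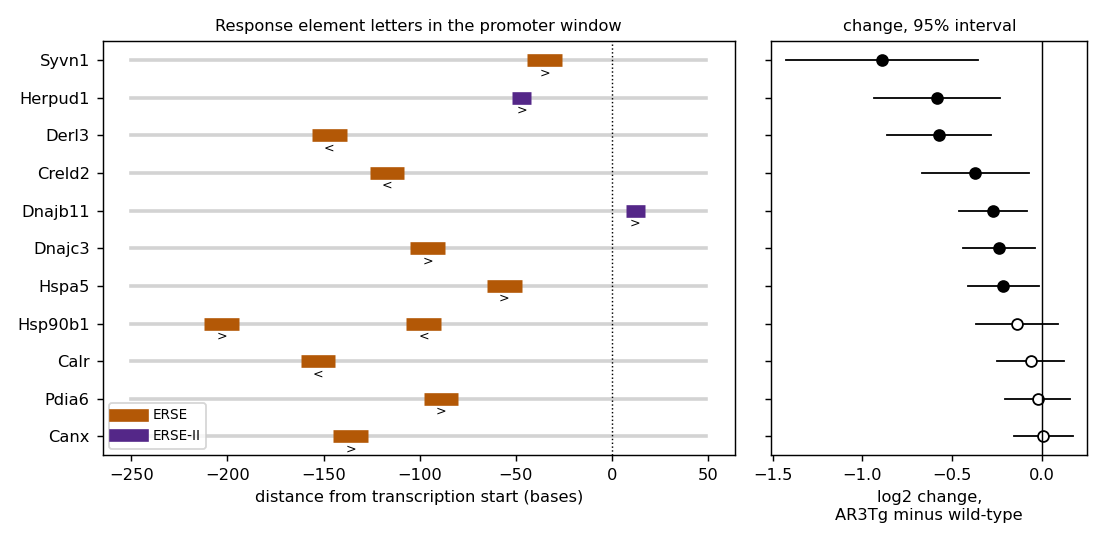
Left, position of ERSE and ERSE-II letters in the promoter windows of 11 genes, in bases from the transcription start, with the arrow giving the strand relative to the gene; right, log2 change of each gene, AR3 transgenic minus wild-type, with its 95% interval (3 mice per genotype). The 7 filled points, from Syvn1 to Hspa5, are genes whose genotypes do not overlap.

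Other genes of the pathway came from a second list, of which 153 were measured: 2 were called lower (1.31%), 0 higher and 151 did not pass, where 0.415% of all probe sets were called lower and 1.05% higher. Both called genes are transcriptional regulators. Nupr1, a small stress-induced chromatin protein, had 439, 406 and 393 in transgenic mice, against 947, 1035 and 966 in wild-type mice. The genotypes lay far apart, with a log2 change of -1.22 ± 0.08 (adjusted p 2.2e-04), and Nupr1 was called in all 15 alternatives. Bhlha15, the factor Mist1 that builds up the secretory apparatus of exocrine cells and is a target of XBP1, had 735, 773 and 758 in transgenic mice, against 1041, 1104 and 1026 in wild-type mice. Its log2 change was -0.48 ± 0.07 (adjusted p 0.020). That call was lost when any 1 transgenic mouse or wild-type replicate 2 was left out, with adjusted p between 0.1 and 0.12. In neither gene was wild-type replicate 2 the lowest wild-type mouse.

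At an unadjusted p of 0.05, 23 of the 153 were lower (15.0%) and 2 higher, against 5.87% and 6.38% of all probe sets, and the median log2 change was -0.045. Stt3b, the second catalytic subunit of the oligosaccharyltransferase, had 2401, 2336 and 2377 in transgenic mice, against 1865, 1793 and 1965 in wild-type mice. Like Ddost it lay higher in every transgenic mouse (0.34 ± 0.07, adjusted p 0.091). It was called with an added constant of 64, without the dimmest probe sets, with an intensity trend and with array weights, at adjusted p between 0.0025 and 0.037. Magt1, an oxidoreductase subunit that works with Stt3b, lay lower in every transgenic mouse (-0.24, adjusted p 0.24). Srp9 of the signal recognition particle (-0.39, adjusted p 0.19), the translocon protein Tram1 (-0.22, 0.27), the oxidase Ero1b (-0.31, 0.17) and the BiP cochaperone Dnajc1 (-0.30, 0.21) lay lower in every transgenic mouse and did not pass. Of the degradation genes, Selenos had a log2 change of -0.26 (adjusted p 0.26), and Selenok lay below background on all 6 arrays.

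Some marker sums of cells in the dissected organ separated the genotypes as well. The summed intensity of 11 genes listed as prostate secretory lay between 48864 and 53056 in transgenic mice, against 60570.4 and 66689 in wild-type mice. In wild-type mice this sum was lowest in replicate 1, not replicate 2. Of the 11 genes, 5 were called lower and 1, Ceacam10, higher. Over all probe sets 0.415% were called lower and 1.05% higher, which holds for all marker counts here. Ceacam10 had 890, 949 and 959 in transgenic mice, against 48.0, 39.1 and 39.8 in wild-type mice, where it lay below the background scale. The sum of 9 luminal epithelial markers lay between 25344 and 25888 in transgenic mice, against 23004 and 24764 in wild-type mice, and 0 of the 9 were called. Fibroblast (5582 to 8033 in transgenic, 4211 to 5974 in wild-type mice) and smooth muscle sums (12935 to 17429 in transgenic, 13730 to 16542 in wild-type mice) overlapped. All 9 fibroblast markers still had positive log2 changes, with a median of 0.53, and 0 were called. The median of the smooth muscle markers was 0.041. Of 9 B and plasma cell markers, whose cells are rich in Derl3 and Xbp1, 8 had means below the background scale, Jchain and Mzb1 among them. Macrophage sums lay between 1086 and 1229.8 in transgenic mice, against 836 and 1003 in wild-type mice. Of the 9 macrophage markers 0 were called, and Cd68, Adgre1, C1qb and Cd14 had means below the background scale. Endothelial sums lay between 996 and 1075 in transgenic mice, against 738 and 919.9 in wild-type mice. Of the 7 endothelial markers only Cdh5 was called, and it was higher (adjusted p 0.0096). Urothelial sums lay between 2322 and 2852 in transgenic mice, against 3028 and 3711 in wild-type mice. Of these 5 genes only Upk1a separated the genotypes, with 1593, 1358 and 1299 in transgenic mice, against 1847, 2427 and 2589 in wild-type mice. The others overlapped, Upk3a and Krt20 had means below the background scale, and 0 of the 5 were called. Basal, seminal vesicle, skeletal muscle, T and NK cell, and B and plasma cell sums overlapped. The seminal vesicle sums were uneven among mice: 3613, 2099 and 9612 in transgenic mice, against 4875, 742 and 909 in wild-type mice. Of these 9 genes, Svs3a was called lower (adjusted p 0.019) and Spinkl higher (adjusted p 2.8e-04). Spinkl had 905, 474 and 639 in transgenic mice, against 40.6, 15.2 and 18.4 in wild-type mice. The part of these cells in the ER values was not tested.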

How the data were processed

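Total RNA of whole prostates was labelled for Affymetrix whole-transcript arrays, per the labels' protocols. The values deposited by the authors are probe set intensities, linear by their range. The sources used here do not give their summarisation, background correction or normalization. Array medians lay between 94.5 and 110.8, and the intensities were not normalized again outside the alternatives. Controls (6568 probe sets with identifiers below 10344614, from knowledge of the platform) were left out, leaving 28944. Symbols came from the platform annotation and were updated through gene IDs to RefSeq GRCm38.p6. Only probe sets with 1 symbol were named.

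Log2(intensity + 16) was fitted with limma 3.58.1 in R 4.3.3 (lmFit, eBayes), 3 AR3 transgenic against 3 wild-type arrays, two-sided, Benjamini-Hochberg over 28944 probe sets. Every adjusted p is from this fit unless a setting is named. The script was tested on simulated data. The added constant understates changes of dim genes. With 3 against 3, an exact permutation test cannot go below 0.1, so none was used. The number of arrays limits the precision.

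The members, the steps and the other lists were chosen with earlier results of these data known. Separate mice gave the arrays, per the labels. Every member could be named. Values per mouse are given for the 5 with the smallest p in each step and for Hspa5, Sec61a1, Xbp1, Atf4, Ddit3 and Ern1. Of the second list, called genes and up to 2 per step are named. The alternatives were quantile normalization, median centring, added constants of 1 and 64, array weights, the mouse number as a block, a trend of the variance with intensity under robust estimation, dropping the 40% of probe sets with the lowest means, the mean of a gene's probe sets, and leaving out each array. Motifs were searched as exact letters on both strands of the RefSeq windows. Marker lists of 12 cell types were read as sums. Batch could not be tested, since no scan date was used here.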

Additional observations from a re-analysis of the deposited data

How the results depend on the processing

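Calls depended on the settings more than directions did. The count of the 50 genes called lower was 0, but 3 with median centring, 2 with a variance trend under robust estimation, and 1 each with an added constant of 64 and with array weights. The shares of all probe sets called lower in these settings were 0.912%, 0.774%, 0.618% and 1.78%, in that order. When leaving out 1 mouse the count ranged from 0 to 1. None was called higher under any of the 15 alternatives. The second list, with 2 called, had 7 with that trend, 8 with array weights, and 1 to 2 when leaving out 1 mouse. Of all probe sets 1.47% were called in the main fit, 2.34% with that trend and 4.15% with array weights. With a replicate block on the mouse number the second list had 1, since Bhlha15 had an adjusted p of 0.11, and 0.864% of all probe sets were called. Deviations of same-numbered mice had r of -0.044, 0.046 and -0.16, against -0.14 to 0.18 for mice of different number. With 3 mice per genotype these values cannot show whether the number pairs the mice. None of the 50 genes was called with the block. The median change of the translocation genes was -0.13 with median centring. That of the folding genes ranged from -0.22 to -0.086 when leaving out 1 mouse and was -0.079 with array weights. That of the degradation genes ranged from -0.30 to -0.13 when leaving out 1 mouse and was -0.13 with array weights. The 16 genes lower at an unadjusted p of 0.05 numbered 6 to 21 over the alternatives, 7 with array weights and 10 with the block. The share of all probe sets lower at that level ran from 3.53% to 11.2%, the latter with array weights. The number of negative changes among the 50 lay between 36 and 45. The median change over all tested probe sets shifted as well, from -0.033 with median centring, where 45 were negative, to 0.028 without wild-type replicate 3. Some changes near 0 turned sign: Stt3a was -0.018 with quantile normalization and -0.016 with median centring, and Sec61a1 was 0.028 and Ern1 0.018 with array weights. When leaving out 1 mouse, Stt3a ranged from -0.0069 to 0.058, Sec61a1 from -0.035 to 0.037, Atf6 from -0.0076 to 0.078 and Ern1 from -0.054 to 0.0030. The cause of these shifts was not tested. With 3 mice per genotype, changes of the size seen for most of these genes, with standard errors near 0.07 to 0.10, did not pass after adjustment over all probe sets.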

Other observations

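Of the 50 genes, 3 had several probe sets with only their symbol. The 3 probe sets of Sec61b had log2 changes of -0.19, -0.19 and -0.20, none called. Both probe sets of Dnajc3 held identical values and carry no independent information. The second, dimmer probe set of Pdia4 differed from the one used: it had 190.4, 103 and 69 in transgenic mice, against 222, 148 and 426 in wild-type mice, a log2 change of -1.01 (adjusted p 0.38), where the brighter one had -0.14. Its order of mice, with wild-type replicate 3 highest and wild-type replicate 2 lowest of its group, is that of Ddit3, and transgenic replicate 1 lay above wild-type replicate 2 in both. For this Pdia4 probe set, transgenic replicate 3 lay below the background scale of its array, 79.9.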
